A study of Mus musculus with 4 samples.

Results

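The IFIT family is a set of interferon-induced proteins built from tetratricopeptide repeats, and the 4 genes followed here were Ifit1, Ifit2, Ifit3 and Ifit3b, taken by symbol from the 24421 genes of the count tables. The cells were lung endothelial cells (ECs) of 2 inducible ADAR1 knockout (i-KO) mice from independent litters, labelled as male, strain C57/BL6 and 2 weeks of age. The culture of each mouse was either left non-induced (CON) or treated with tamoxifen (TM), which induces deletion of exons 12 to 15 of Adar, the gene of the RNA-editing enzyme ADAR1. The 2 mice, EC1 and EC2, each gave a CON and a TM library, so that every group had n = 2 mice. Nothing beyond these 2 mice was replicated. Both conditions carry the inducible alleles. No library came from TM-treated wild-type cells, so an effect of TM itself and of the deletion cannot be told apart. The labels call the model EC-specific, and the Cre driver of the inducible line is not given in the sources used here.

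IFIT genes are silent or low in resting cells and are switched on by type I interferon, through the transcription factor complex ISGF3, or directly by IRF factors downstream of RNA sensors such as MDA5. IFIT1 binds RNA whose 5′ cap lacks a methyl mark and blocks its translation, IFIT2 binds the translation factor eIF3, and human IFIT3 joins and stabilizes IFIT complexes. Ifit3b is a second mouse copy of Ifit3. ADAR1 converts adenosine to inosine in double-stranded RNA, and inosine is read as guanosine in sequencing.

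In mm10, with GENCODE positions, the 4 genes lie head to tail on the plus strand of chromosome 19. Ifit2 spans chr19:34550694-34576419, Ifit3 chr19:34583531-34588731, Ifit3b chr19:34607970-34613401 and Ifit1 chr19:34640871-34650009. The IFIT-like genes Ifit1bl1 and Ifit1bl2 lie between them on the minus strand. No exon base of the 4 genes is shared with an exon of another gene in this annotation. The coding sequences of Ifit3 and Ifit3b matched at 99.1% of 1212 aligned bases. The identity of every other pair of members was between 51.8% and 56.4%. Of the 100-base windows of the Ifit3 transcript, 31.7% occurred without a difference in Ifit3b, and 27.4% of those of Ifit3b occurred in Ifit3. Reads of these 2 genes can therefore not always be assigned to 1 copy. No such window was shared between any other pair of members.

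The promoters are shown because all 4 genes moved together in the counts below. RefSeq windows of 300 bases (GRCm38.p6), most of each lying before the start, were searched on both strands for GAAA followed by any 2 bases and GAAA again, the core of the interferon-stimulated response element, to which ISGF3 and IRF factors bind. Ifit1, Ifit3 and Ifit3b each held 2 matches, all of them upstream of the start. Over all windows searched, 3.44% of 32851 held a match and 0.225% held more than 1. The windows of a single other chromosome were left out of this share. The stretches around the matches are given 5′ to 3′ on the plus strand, with the matches in capitals (they read as the reverse complement of the motif).
Ifit1, chr19:34640765-34640833, plus strand: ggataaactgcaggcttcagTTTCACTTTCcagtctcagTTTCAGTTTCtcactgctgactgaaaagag
Ifit3, chr19:34583353-34583436, plus strand: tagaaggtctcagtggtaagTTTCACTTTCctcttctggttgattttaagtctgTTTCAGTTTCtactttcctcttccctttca
Ifit3b, chr19:34607749-34607832, plus strand: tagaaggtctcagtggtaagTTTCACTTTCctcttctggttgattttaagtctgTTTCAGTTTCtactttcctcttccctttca

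The Ifit3 and Ifit3b stretches were the same letter for letter. The Ifit1 stretch also lies in the window of Ifit1bl2, which starts on the other strand at position 34640743, so both of its matches are upstream of 2 genes that face apart. Both windows of Ifit1bl1 held 1 match. Neither of the 2 Ifit2 windows held these letters.

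The libraries held 1095488 to 1778732 counts on genes, which was 0.823% to 0.858% of all reads in the count tables, and 92.8% to 93.9% of reads fell on no counted feature. A count of 3, taken as the floor of a library, was 1.69 to 2.74 counts per 1000000 gene counts, TMM-scaled in the values below (CPM). For Adar, the count was 9 (EC1) and 16 (EC2) without TM and 47 and 71 with it, but a count over the whole gene does not check the deletion. The median depth at sites in Adar exons 2 to 11 was 115 and 122 per 100000000 reads in CON and 504 and 466 in TM. In exons 12 to 14 it was 109 and 118 in CON and 31.6 in EC2 TM, and no site was listed there in EC1 TM. In exon 15, which is stated to lie within the deletion, it was 74.4 and 109 in CON and 320 and 403 in TM, as high relative to CON as in exons 2 to 11. The listed bases thus show a lower depth only in exons 12 to 14 of EC2 TM, on 2 bases against 1 in EC2 CON. In EC1 TM the depth there is not known. The exon numbers are those of a single transcript. The endothelial markers Cdh5 (403 to 494 CPM) and Pecam1 (160 to 271 CPM) were counted in every library, and 0 of the 7 endothelial markers tested passed the threshold, while Tie1 passed as lower in TM in edgeR with the mouse as a block (adjusted p = 0.0251). By read depth at listed exonic bases, scaled to the library, all 8 endothelial markers were lower in TM in both mice, from 0.60-fold (Icam2) to 0.97-fold (Emcn) in EC1 and from 0.55-fold (Tie1) to 0.94-fold (Cdh5) in EC2. The median over all genes compared was 1.02-fold in EC1 and 0.96-fold in EC2, so Emcn in EC1 and Cdh5 in EC2 were near the middle of all genes. Each library's depth was taken over its own listed bases. The leukocyte list summed to 9.12 to 22.8 CPM, with Lyz2 and Cd3e at a gene count of 0 throughout, although Lyz2 had a median depth of 41 reads at 3 listed bases of EC2 CON and 17.5 at 2 of EC2 TM. The epithelial list summed to 1.82 to 6.26 CPM. The fibroblast and smooth muscle list summed to 477 to 555 CPM, nearly all of it Tagln, and neither of the 2 genes of 7 that could be tested passed. By depth, Dcn was 0.36-fold and 0.33-fold, Col1a1 0.34-fold and 0.44-fold and Tagln 0.70-fold and 0.48-fold in TM (EC1, EC2). Acta2 was 0.13-fold and Col1a2 0.43-fold in EC2, where Pdgfra, at 3 reads in CON, was 5.31-fold. The part of these marker differences in the results on IFIT genes was not tested. In bulk RNA, fewer responding cells and less RNA in each cell cannot be told apart.

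All 4 IFIT genes rose with TM. Counts were compared with edgeR's quasi-likelihood test over the 7899 genes that passed a filter on low counts, with Benjamini-Hochberg adjustment and a threshold of 0.05. By this test 4 of 4 members were higher in TM, where 4.39% of all genes tested were called in that direction and 7.75% in either. Ifit2, Ifit3 and Ifit3b, with CON counts of 15 and 2, 1 and 0, and 5 and 0, passed the filter through their TM counts. Genes kept in this way can hardly be called lower in TM, so 4 of 4 against 4.39% is no independent support for a rise. With no filter on low counts, edgeR called 636 of 17237 genes (386 higher) and 4 of 4 members. With the mouse as a block, edgeR also called 4 of 4, against 7.60% of genes called higher and 15.0% called in all. DESeq2 called 4 of 4, against 2.26% of its 10373 genes called higher and 3.49% in all. DESeq2 with the mouse as a block called 3 of 4, against 3.49% of its 6451 genes called higher and 6.22% in all. Their median log2 fold change was 4.86, against 0.00 over all genes tested. For each member both TM libraries were above both CON libraries in CPM, as for 25.3% of all genes tested. An exact permutation test of a single value with 2 libraries against 2 cannot go below p = 0.333. Summed over the 4 genes, EC1 went from 31 to 563 counts and EC2 from 28 to 1474. As a share of all gene counts this was 0.00283% and 0.00229% in CON (exact binomial 95% intervals 0.00192% to 0.00402% and 0.00152% to 0.00331%). In TM it was 0.0514% and 0.0829% (0.0472% to 0.0558% and 0.0787% to 0.0872%). These intervals and those below cover counting error only.

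Ifit1, which encodes the member that recognizes incompletely capped RNA, was counted 10 times without and 147 times with TM in EC1, and 26 and 833 times in EC2. Both CON libraries were low, and the EC2 libraries were above those of EC1 in both conditions. In CPM it was 16.3 ± 10.5 (SD, n = 2) in CON and 303 ± 241 (SD, n = 2) in TM, a log2 fold change of 4.22 (SE 0.48, adjusted p = 2.03e-07, edgeR). Within EC1 the fold was 14.95 (95% counting interval 7.90 to 31.8), and within EC2 it was 19.98 (13.5 to 30.8). The 2 intervals overlap, although the TM level differed by 3.56 times between the mice.

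Ifit2, whose product binds eIF3, went from 15 to 297 counts in EC1 and from 2 to 402 in EC2. The TM libraries were near each other at 269 and 229 CPM, while the CON libraries stood apart at 13.3 and 1.82 CPM. The log2 fold change was 5.01 (SE 0.46, adjusted p = 4.94e-09, edgeR), with 7.58 ± 8.15 CPM in CON and 249 ± 28.3 CPM in TM (SD, n = 2). The fold was 20.1 in EC1 (12.01 to 36.4) and 125 in EC2 (34.5 to 1039). The width of the EC2 interval comes with the 2 counts of EC2 CON, and it overlaps that of EC1.

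Ifit3 had a single count in EC1 before TM and 61 after it, and 0 and 115 in EC2. Both CON libraries were under the floor of 3 counts. Both TM libraries were well above it, at 55.2 and 65.4 CPM. The fitted log2 fold change was 6.79 (SE 0.72, adjusted p = 6.86e-08, edgeR), and its size depends on how a count near 0 is handled. In EC1 the ratio was 62.0 with a counting interval of 10.7 to 2490. In EC2, set against the floor of 3 counts in that library, the gene was at least 23.9-fold higher.

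Ifit3b, the second copy of Ifit3, gave 5 counts in the untreated and 58 in the treated culture of EC1, and 0 and 124 in those of EC2. EC1 CON was the only CON library above 3 counts, and the TM libraries were close to those of Ifit3 at 52.5 and 70.5 CPM. The log2 fold change was 4.72 (SE 0.61, adjusted p = 1.83e-06, edgeR). The fold was 11.8 in EC1 (4.78 to 37.7) and 25.8 in EC2 with the floor of 3 counts in place of 0. The counting interval in EC2 had a lower limit of 20.7. Ifit3b was the member that lost its call in 1 alternative: DESeq2 with the mouse as a replicate block gave a log2 fold change of 5.76 with an adjusted p = 0.0964.

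**Figure D1:**
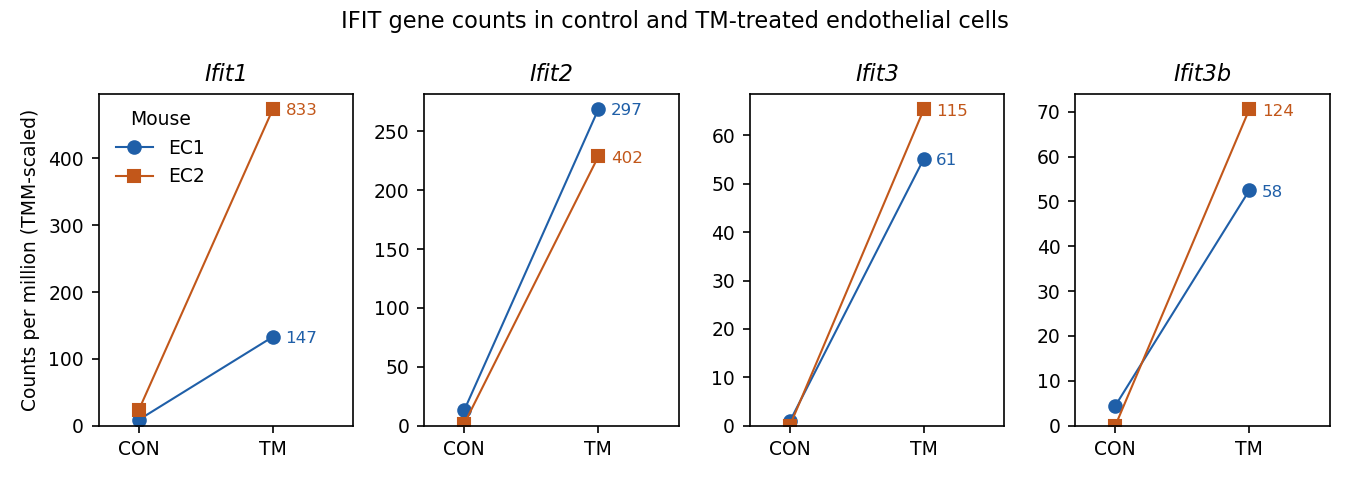
CPM (TMM-scaled, y axis, a separate scale from 0 in each panel) of each IFIT gene in CON and TM, with 1 line a mouse (EC1 circles, EC2 squares) and the raw TM count beside each point. All 8 lines go up, and the mice differ most for Ifit1, at 133 and 474 CPM in TM.

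A second readout of the same libraries came from the table of candidate editing sites, which gives the reads at single bases, on either strand of the RNA. It lists a base in a library only where at least 1 read carried the altered base, so a deeply covered gene has more listed bases. Of 888 listed bases of the 4 genes, 708 were in exons and 124 in introns, and 853 were listed in neither CON library. Ifit1 had 6 listed exonic bases without and 99 with TM in EC1, and 4 and 86 in EC2. In the same order, Ifit2 had 2, 98, 1 and 100, Ifit3 had 3, 104, 5 and 100, and Ifit3b had 3, 83, 3 and 89. In each gene the TM libraries of both mice had many more listed bases than either CON library.

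The median depth at those exonic bases was higher in TM in both mice for each member. Ifit1 went from 55 to 1746 reads in EC1 and from 58 to 2896 reads in EC2. Scaled to the reads of each library, that was 32.1-fold in EC1 and 34.6-fold in EC2. Ifit2 had 19 and 12 reads in the CON libraries and 1746 and 2270 in TM, a scaled 92.8-fold in EC1 and 131-fold in EC2. For Ifit3 the depth was 74 and 50 reads in CON and 4905 and 8957 in TM, 66.9-fold and 124-fold. Ifit3b had 43 and 25 reads in CON and 2436 and 4421 in TM, 57.2-fold and 122-fold. The median over all genes compared was 1.02 in EC1 and 0.96 in EC2. A depth at least 2-fold higher in TM was found for 4 of 4 members in both mice, against 10.3% of 10487 genes in EC1 and 8.34% of 11093 genes in EC2. With bases listed in both libraries of a mouse, the members with any such base were 27.4-fold to 97.3-fold higher in EC1 and 46.7-fold to 140-fold higher in EC2, each on 1 to 3 bases. By this measure 8.47% of 5062 genes in EC1 and 6.20% of 6036 genes in EC2 were at least 2-fold higher. Ifit2 had no such base in EC2. Depth was given no test, since each mouse has 1 library per condition.

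**Figure D2:**
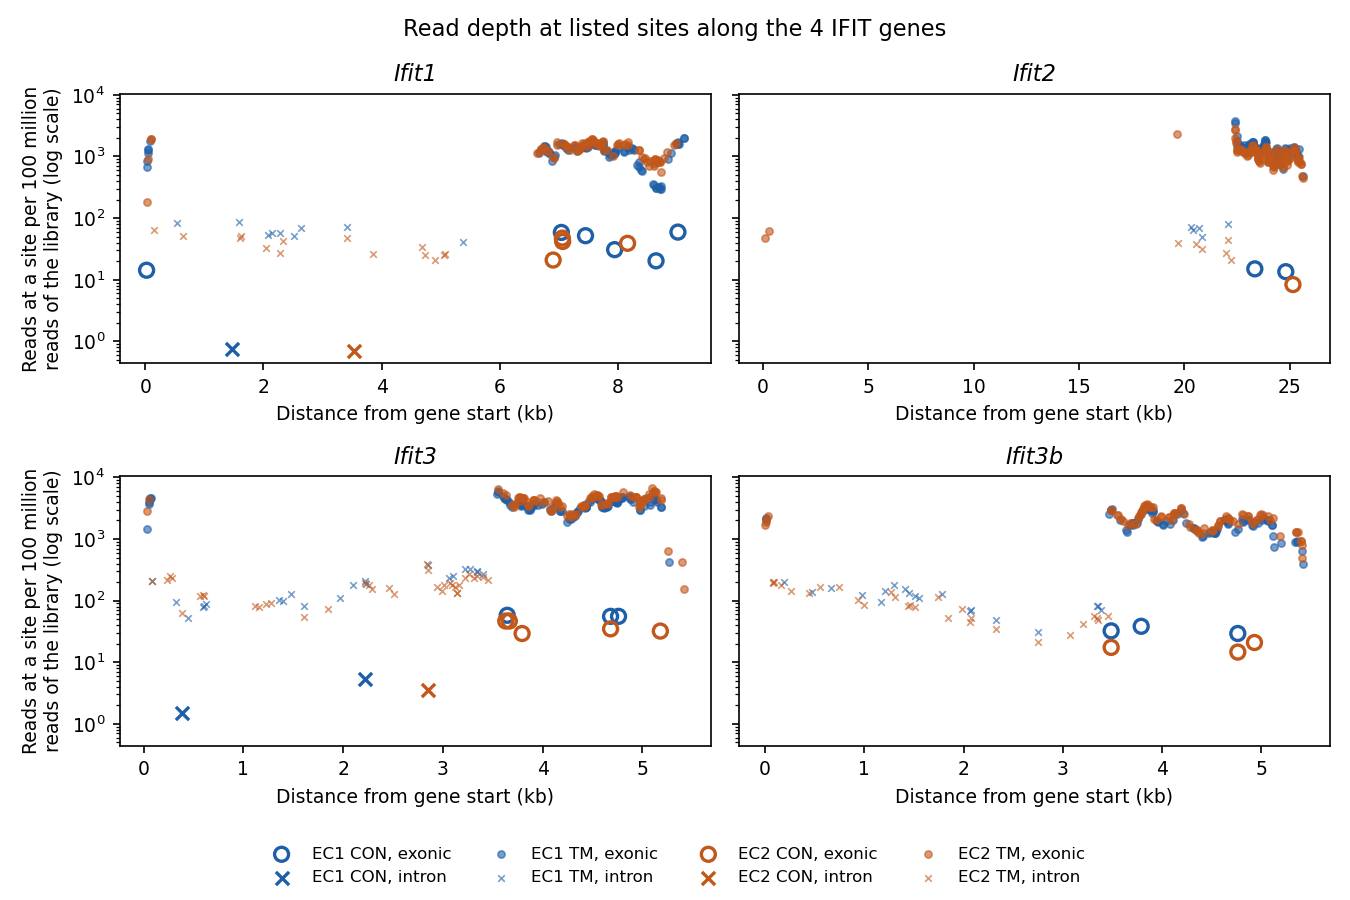
Reads at each listed base per 100000000 reads of the library (log scale) against the distance from the gene start in kb, for exonic bases (circles) and intronic bases (crosses) of CON (large open circles, heavy crosses) and TM (small symbols). Nearly all exonic TM bases lie in the upper band of each panel, the few CON bases lie well below them, and the TM introns lie near or above the exonic CON bases.

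The exonic depth did not order the members as the counts did. Per 100000000 reads, Ifit3 had the highest median exonic depth in TM, 3722 in EC1 and 4320 in EC2. Ifit3b followed with 1848 and 2132, and then Ifit1 with 1325 and 1397 and Ifit2 with 1325 and 1095. The ranges of the 2 mice did not overlap between Ifit3, Ifit3b and Ifit1, while those of Ifit1 and Ifit2 met. In CPM per kb of exon, Ifit1 had 50.1 and 178 in EC1 TM and EC2 TM, Ifit2 68.4 and 58.2, Ifit3 31.6 and 37.5, and Ifit3b 26.2 and 35.3. On this scale the ranges of Ifit1 and Ifit2 overlapped, as did those of Ifit3 and Ifit3b, and the first pair lay above the second. By default the counting leaves out reads aligned to more than 1 place. Of the 100-base windows, 31.7% of Ifit3 and 27.4% of Ifit3b occur in the other copy, so their counts may be lowered by this. Its part in the order of the members was not tested. Ifit1 was 3.56 times higher in EC2 TM than in EC1 TM by CPM but 1.05 times by exonic depth. For the other members these 2 ratios were close, at 0.85 and 0.83 for Ifit2, 1.19 and 1.16 for Ifit3, and 1.34 and 1.15 for Ifit3b. The deepest exonic base of a member in a TM library held 4.76 to 130 times as many reads as were counted for its whole gene. The lowest of these was Ifit1 in EC2 TM and the highest was Ifit3 in EC1 TM. The gene counts thus held a small part of the reads over the exons of these genes. The files do not show which strand the counted reads came from, so the counts, CPM and count folds may measure reads of the strand opposite to the gene, which was not tested. A count of 0 or under the floor is therefore no limit on the RNA of a gene. The ratios to the floor and the lower limits above concern the fold in counted reads only.

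**Figure D3:**
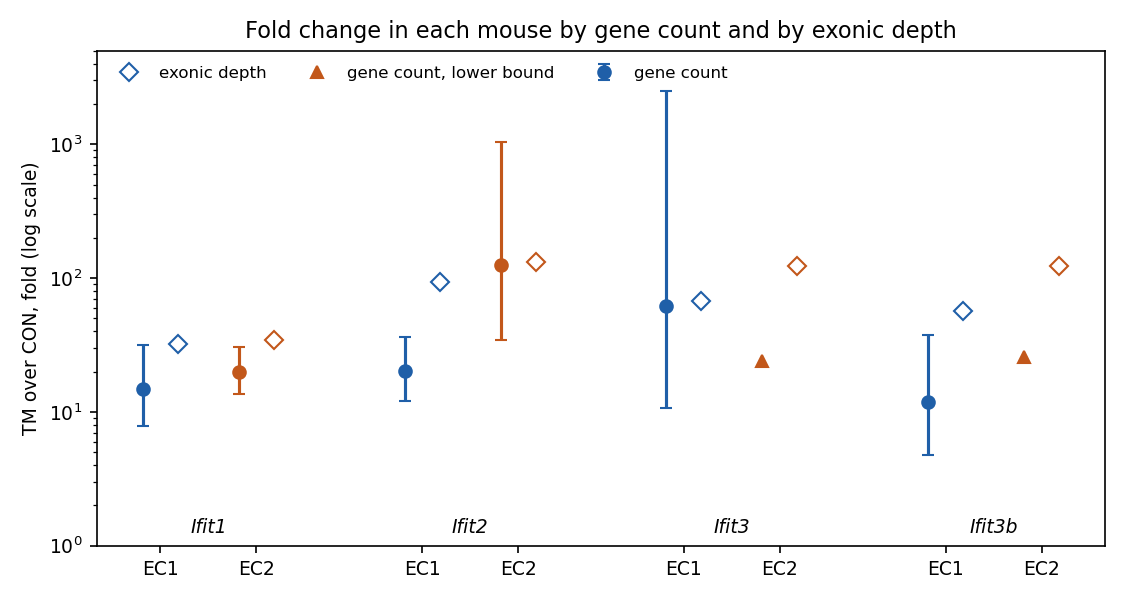
TM over CON in each mouse (log scale) by gene count (filled circles with 95% counting intervals, or triangles for lower bounds where CON had 0 counts) and by median exonic depth (open diamonds, no interval). The values lie between 11.8 and 131, and the depth folds of Ifit1 in both mice (32.1 and 34.6) and of Ifit2 and Ifit3b in EC1 (92.8 and 57.2) lie above the counting intervals.

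Intronic bases of the members were covered less in TM than exonic bases. Their median depth was 77 reads in EC1 TM and 69.5 in EC2 TM for Ifit1, and 90 and 71.5 for Ifit2. It was 244 and 354 reads for Ifit3 and 159 and 172 for Ifit3b. This was 4.41% and 2.40% of the exonic depth for Ifit1 and 6.53% and 3.89% for Ifit3b, with Ifit2 and Ifit3 between 3.15% and 5.15%. In CON the deepest intronic base listed held 7 reads.

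Very few of these bases had altered reads at more than a trace level. Of the exonic bases of the 4 genes with at least 1000 reads, 77.1% of 363 in EC1 TM and 74.7% of 368 in EC2 TM carried a single altered read. Over all genes this was 74.6% of 27159 and 77.0% of 55396. The study's criteria for a site (at least 5 reads, at least 3 altered, a rate of 5% to 95%) were met in any library by 5 bases, 2 of Ifit3 and 3 of Ifit3b. No base of Ifit1 or Ifit2 met them. Within a mouse, the reads of CON and TM were compared with Fisher's exact test (two-sided) at bases with at least 5 reads in both libraries and 3 altered reads in one. Of the members, 4 bases in EC1 and 3 in EC2 could be tested, and 0 were called, against 0.234% of 28574 and 0.707% of 27599 bases over all genes. None of the 7 tests had an unadjusted p under 0.05 either, the lowest being 0.0722 for Ifit3b in EC2. At the CON depth of these bases, 5 to 74 reads, only large differences were detectable. Every exonic base tested was a place where Ifit3 and Ifit3b differ and the other copy has the altered base. There the test cannot tell editing from reads of the other copy.

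The intronic sites were seen in both TM libraries. At chr19:34585749, an MTEb long terminal repeat in the intron of Ifit3, 42.9% of 7 reads were altered in EC1 CON (Wilson 95% interval 15.8% to 74.95%). In TM it was 43.3% of 270 reads in EC1 (37.6% to 49.3%) and 42.6% of 401 in EC2 (37.9% to 47.5%). These 3 shares overlap, and the base was not listed in EC2 CON. At chr19:34610046, in an MTEb repeat of the Ifit3b intron, 21.3% of 94 reads were altered in EC1 TM (14.2% to 30.6%) and 29.6% of 108 in EC2 TM (21.8% to 38.8%), with no listing in CON. At chr19:34586380, also in the Ifit3 intron, the shares were 7.21% of 499 in EC1 TM (5.26% to 9.83%) and 9.10% of 648 in EC2 TM (7.12% to 11.6%). In EC2 CON 1 of 5 reads was altered there. One base of the Ifit2 intron, chr19:34571511, was altered in 64 of 64 reads in EC1 TM and 65 of 65 in EC2 TM. This is over the upper limit of 95% in the study's criteria. For the intronic sites of Ifit3 and Ifit3b the base of the other copy was not looked up. Whether the altered reads at any of these intronic sites came from editing was not tested.

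The exonic sites with many altered reads all lay where Ifit3 and Ifit3b differ. Exonic bases of the pair with at least 20 altered reads in a library, a limit chosen after the values were seen, numbered 4, and at each of them the other copy has the altered base. The substitutions, written as the base of the copy itself, the mm10 position on chromosome 19 and the base of the other copy, were A34588213G and A34588661G in Ifit3 and A34611458G and A34612735G in Ifit3b. Each site is given in the copy that carries it and then in the other copy, 25 bases 5′ to 3′ from the GENCODE transcripts, with the site in capitals.
Ifit3, coding exon, chr19:34588201-34588225, plus strand: gtgtttgttgcaAtttcccagaaat
Ifit3b at the same place: gtgtttgttgcaGtttcccagaaat
Ifit3, 3′ UTR, chr19:34588649-34588673, plus strand: tgtagggaatggAgcttaaagcaga
Ifit3b at the same place: tgtagggaatggGgcttaaagctca
Ifit3b, coding exon, chr19:34611446-34611470, plus strand: atctctggaagcAatccttccacag
Ifit3 at the same place: atctctggaagcGatccttccacag
Ifit3b, 3′ UTR, chr19:34612723-34612747, plus strand: ttgggaggcaacAcactttggggca
Ifit3 at the same place: ttgggaggcaacGcactttggggca

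The coding exon site of Ifit3b had 2 altered reads of 43 without and 295 of 3914 with TM in EC1, and 3 of 25 without TM in EC2, where it was not listed after TM. The 3′ UTR site of Ifit3b was listed in all 4 libraries, with 10.3% and 14.3% altered in CON (EC1, EC2) and 9.44% and 4.63% in TM. The coding exon site of Ifit3 was also listed in all 4, with 1.35% and 2.00% altered in CON and 1.09% and 0.554% in TM. The lower shares were in Ifit3, the copy with the deeper coverage. Over the aligned transcripts, 507 positions have an A in both copies. Of these, 176 were listed in Ifit3 and 147 in Ifit3b, with at most 9 and 4 altered reads in a library. Of the 3 Ifit3b positions where only the other copy has a G, 2 were listed, and of the 4 such Ifit3 positions 4 were listed. Whether the altered reads came from editing or from reads of the other copy was not tested.

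**Figure D4:**
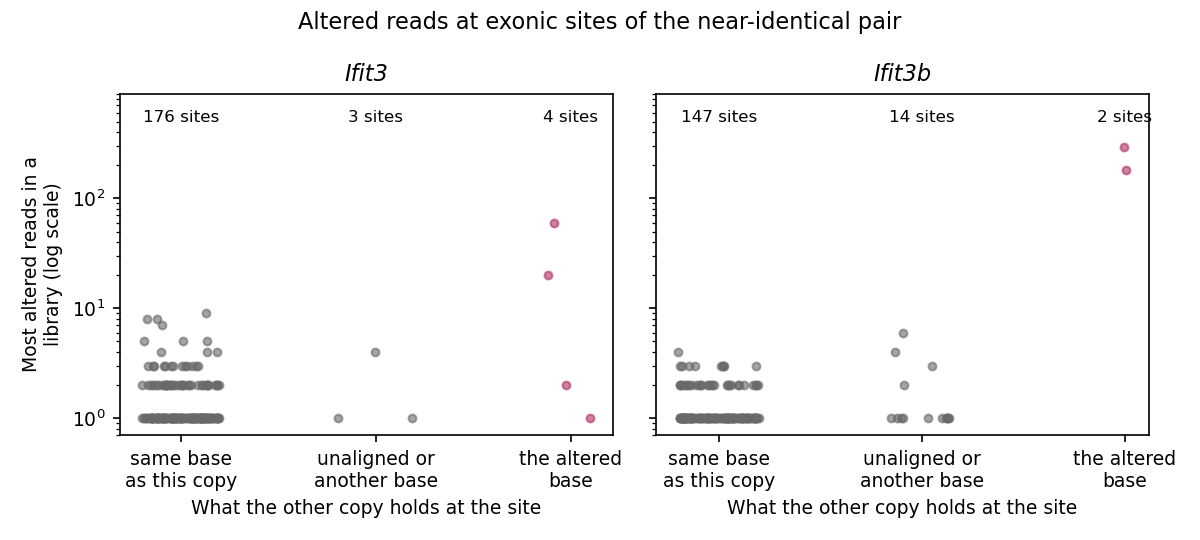
The highest number of altered reads in a library (log scale) at each listed exonic base of Ifit3 and Ifit3b, by what the other copy holds at that place. Bases that are the same in both copies reach 9 altered reads in Ifit3 and 4 in Ifit3b, and the sites with 20 to 295 altered reads are all in the right-hand class, which also holds 2 Ifit3 sites with 1 and 2.

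The neighbours of the 4 genes were measured in the same way. Ifit1bl1 had CON counts of 2 and 0 (EC1, EC2) against TM counts of 94 and 126 (log2 fold change 6.29, SE 0.64, adjusted p = 3.04e-08, edgeR). Ifit1bl2 had CON counts of 2 and 0 against TM counts of 41 and 48 (5.00, SE 0.76, adjusted p = 2.63e-05, edgeR). Both IFIT-like genes thus rose by counts. The median exonic depth of Ifit1bl1 was 879 reads in EC1 TM and 1178 in EC2 TM, with no exonic base listed in CON. For Ifit1bl2 it was only 19 and 35 reads in TM. Its 9.59-fold difference in EC1 rests on 1 CON base of 2 reads, and no exonic base was listed in EC2 CON. Of 9 other genes on either side of the cluster, 8 were in the tables and 5 could be tested. In the fit without a block 0 of these rose and 1 fell, Pank1, a pantothenate kinase, with CON counts of 41 and 29 against TM counts of 10 and 17 (log2 fold change -1.73, SE 0.47, adjusted p = 0.0179, edgeR). This call was lost in DESeq2 (adjusted p = 0.202). With the mouse as a block, edgeR also called Stambpl1, a deubiquitinase, higher in TM (log2 fold change 1.96, adjusted p = 0.0312, against 0.0594 without the block), and its exonic depth was 1.78-fold and 2.79-fold higher. The tested flanking genes had a median log2 fold change of -0.09 by counts, which was the value of Ch25h. By exonic depth Ch25h was 2.27-fold and 1.94-fold higher in TM (EC1, EC2), on 1 listed base per library in EC1. The flanking genes Lipa (0.74-fold and 0.996-fold) and Kif20b (0.48-fold and 0.84-fold) were not higher by depth. Pank1 (0.34-fold) and Acta2 (0.13-fold) had a depth value in EC2 only.

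Genes with the pattern most like that of a member were found by the distance between log2 CPM values centred on each gene's mean, over the 4 libraries and 7898 genes. For Ifit1 the nearest was Isg15, an interferon-induced ubiquitin-like protein (distance 0.76), followed by Phf11d and Hspb8 (both 1.15). For Ifit2 they were Ifit1bl1 (0.74), Gm4841 (0.76) and Iigp1 (0.91), an interferon-inducible GTPase. Iigp1 was also nearest to Ifit3 (0.36), before 9330175E14Rik (0.42) and Ifit1bl1 (0.49). For Ifit3b the nearest was Oasl2, an interferon-induced member of the oligoadenylate synthetase family (0.35), then Krtcap2 (0.72) and Iigp1 (0.78). Ifit3 and Ifit3b were each 12th in the list of the other. Relative to their size, their counts differed most in EC1 CON, at 1 and 5, near the floor of 3 counts. By exonic depth they were 66.9-fold and 57.2-fold higher in EC1 TM and 124-fold and 122-fold higher in EC2 TM. Isg15 had CON counts of 1 and 6 against TM counts of 44 and 126, with the higher value in EC2 in both conditions, as for Ifit1. For Oasl2 the CON counts were 5 and 0 and the TM counts 44 and 100.

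The ligands that would induce the family were near the limit of the counts. Of 9 interferon genes, 8 were at 0 in all 4 libraries, Ifnb1 and Ifng among them, and Ifna4 had 2 counts in EC1 TM. None could be tested. A count of 0 does not limit the level of these genes here, since Lyz2, also at 0, had reads at single exonic bases. Of the receptors and their kinases, 0 of the 5 tested passed. Jak1, a kinase of the interferon receptors, had 17.8 and 33.7 CPM in CON and 37.1 and 42.1 CPM in TM. Ifnar1, a chain of the type I receptor, had 21.4 and 26.5 CPM in CON and 18.1 and 19.9 CPM in TM. The median log2 fold change of this list was 0.50 by counts. By exonic depth Jak2 was 3.25-fold and 2.29-fold higher in TM (EC1, EC2), and Ifnar2 was 0.77-fold and 2.95-fold. Jak1 was 1.005-fold and 0.77-fold, so its higher CPM in TM was not seen by depth. Ifnar1 was 0.68-fold and 0.55-fold, Ifngr1 0.74-fold and 0.79-fold, Ifngr2 0.66-fold and 0.58-fold, and Tyk2 0.91-fold and 1.102-fold.

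Among the transcription factors 3 of 6 rose and 0 fell. Stat2, a subunit of ISGF3, had 9 counts in each CON library, against TM counts of 98 and 164 (log2 fold change 3.47, SE 0.42, adjusted p = 6.66e-07, edgeR). Irf9, the DNA-binding subunit of ISGF3, had CON counts of 1 and 2 against TM counts of 22 and 28 (adjusted p = 0.00199, edgeR). Its call was lost in DESeq2 (adjusted p = 0.0625). The exonic depth of Irf9 was 3.66-fold and 2.89-fold higher in TM (EC1, EC2), less than its log2 fold change of 3.62 by counts. Irf1, an interferon-induced activator, had CON counts of 9 and 6 against TM counts of 41 and 65 (adjusted p = 0.000949, edgeR). Irf7, an inducer of interferon genes, did not pass (log2 fold change 0.78, SE 0.32, adjusted p = 0.157, edgeR), but passed in edgeR with the mouse as a block (adjusted p = 0.0312). Its depth readout differed from its counts, with a median exonic depth 29.3-fold higher in EC1 TM and 38.3-fold higher in EC2 TM.

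Of the RNA sensors and adaptors tested, 3 of 6 rose by counts and 0 fell. Ifih1, which encodes the sensor MDA5, had CON counts of 2 and 0 against TM counts of 36 and 53 (adjusted p = 2.64e-05, edgeR). Zbp1, a sensor of Z-form nucleic acid, was at 0 in both CON libraries and had 19 and 48 counts in TM (adjusted p = 3.44e-05, edgeR). Tlr3, the endosomal sensor of double-stranded RNA, had CON counts of 2 and 6 against TM counts of 34 and 29 (adjusted p = 0.00666, edgeR), a call lost in DESeq2 (adjusted p = 0.103). Dhx58, which encodes the sensor relative LGP2, had lower counts in TM without passing (log2 fold change -1.20, SE 0.39, adjusted p = 0.0527, edgeR), and passed as lower in edgeR with the mouse as a block (adjusted p = 0.0141). By exonic depth the same gene was 17.6-fold and 14.3-fold higher in TM. Eif2ak2 did not pass (log2 fold change 0.88, SE 0.31, adjusted p = 0.0747, edgeR) but passed as higher in edgeR with the mouse as a block (adjusted p = 0.00213). Its depth was 3.13-fold and 2.98-fold higher. Ddx58 did not pass (log2 fold change 0.17, SE 0.35, adjusted p = 0.857, edgeR), and its depth was 5.26-fold and 3.31-fold higher. Mavs could not be tested by counts, and its depth was 0.67-fold and 0.50-fold. Among the feedback inhibitors 1 of 4 rose, Trex1, a DNA exonuclease, with 98.7 and 61.1 CPM in CON and 242 and 166 CPM in TM (adjusted p = 0.0065, edgeR). Usp18, which removes ISG15 and dampens receptor signalling, had a log2 fold change of -0.38 by counts (SE 0.42, adjusted p = 0.685, edgeR) and was 29.4-fold and 53.0-fold higher by exonic depth.

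Of the partners of IFIT proteins and the cap methyltransferases, 1 of 5 rose. This was Eif3c, a subunit of eIF3, with CON counts of 47 and 56 against TM counts of 440 and 666 (log2 fold change 3.06, SE 0.32, adjusted p = 6.02e-08, edgeR). Its exonic depth was 2.21-fold and 2.14-fold higher. Eif3a, another subunit of the same complex, had a log2 fold change of -0.10 (SE 0.31, adjusted p = 0.913, edgeR), and its depth was 1.02-fold and 1.08-fold. Cmtr1, which methylates the first nucleotide of the cap, did not pass (1.72, SE 0.58, adjusted p = 0.0616, edgeR) but passed with the mouse as a block (adjusted p = 0.0232, edgeR), and its depth was 3.28-fold and 2.54-fold higher. Over the pathway lists 8 of 26 tested genes were called, all of them higher in TM, where 4.39% of all genes tested were called higher. Several of the called genes, Ifih1 and Zbp1 among them, passed the filter on low counts through their TM counts, so a call as lower was hardly open to them. With the mouse as a block, edgeR called 14 of 26, of which 13 were higher, where 15.0% of all genes were called and 7.60% were called higher.

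**Figure D5:**
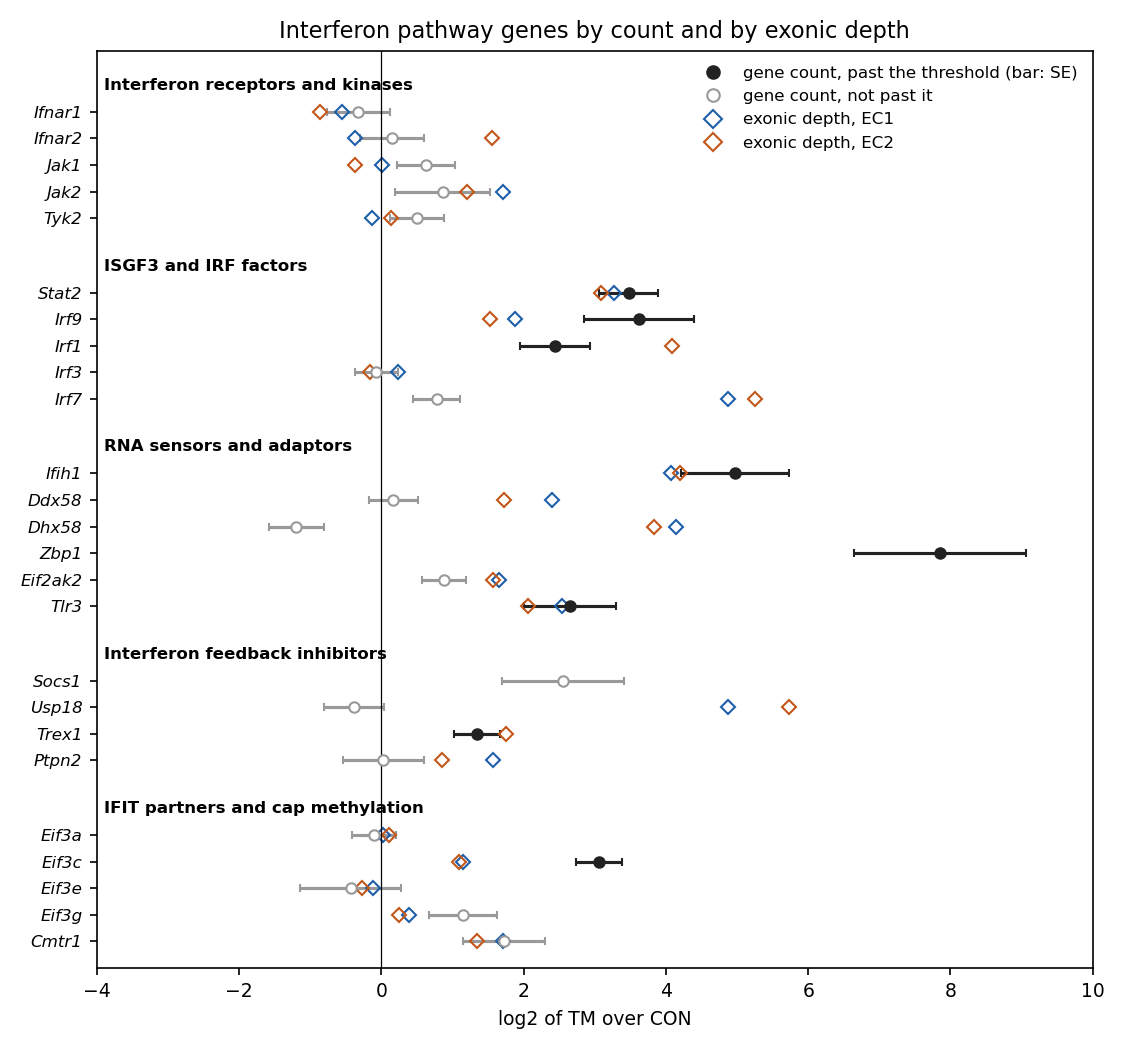
The log2 of TM over CON for the genes of the pathway lists by count (circles with SE, filled where past the threshold) and by median exonic depth in EC1 and EC2 (open diamonds, where listed in both libraries). The depth diamonds of Irf7, Dhx58 and Usp18 lie far to the right of their count circles, while those of Stat2 and Ifih1 lie near them.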

How the data were processed

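RNA of the 4 EC cultures was sequenced after ribosomal RNA removal (KAPA RNA HyperPrep Kit with RiboErase, NovaSeq6000). Per the labels and the study's methods, the authors used Trimmomatic 0.38 for trimming and STAR 2.6.1a for alignment to mm10, and deposited raw counts per gene from HTSeq 0.11.2, with default settings. By default HTSeq counts reads on the gene's own strand and leaves out reads aligned to more than 1 place. The kit keeps strand, and whether the setting met its orientation was not tested, so the counts, CPM and count folds may be those of reads opposite to the gene. Rows that name no gene (all but 0.823% to 0.858% of reads) were left out of library sizes. The deposited site table gives, per base and library, BCFtools mpileup read counts for either base and the altered fraction of reads.

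Counts were tested with edgeR 4.0.16 (R 4.3.3; filterByExpr, TMM, glmQLFTest, condition only), with DESeq2 1.42.0 as an alternative, and depth was scaled to 100000000 reads of the count table. Standard errors of log2 fold changes were taken from the quasi-likelihood F. Samples were grouped by treatment label. The same-numbered libraries come from the same mouse, and their deviations from the group means correlated at r = 0.163 over 7899 genes. Scripts were tested on simulated data. Named genes were the members, the genes of fixed lists, and the 3 genes nearest to each member. 1 gene of the lists stays in the list counts and is otherwise not reported here. The members and lists were chosen with earlier results of these data known. The planned depth comparison, over at least 3 bases listed in both libraries of a mouse, gave a value for Ifit1 in EC1 only. The median over each library's own listed exonic bases was therefore used, a choice made after seeing the data. Alternatives were other size factors and filters, the mouse as a block, each library left out, and other depth minimums.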

Additional observations from a re-analysis of the deposited data

How the results depend on the processing

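The 4 members kept their direction in every alternative that could fit them, and edgeR calls held when any 1 library was left out (4 to 4 members). A lone library was then assumed to vary like the other group. Leaving out a library moved the log2 fold change of Ifit1 from 3.01 to 5.09, of Ifit2 from 4.21 to 7.002, of Ifit3 from 5.94 to 9.32 and of Ifit3b from 3.77 to 9.35. Ifit1 was lowest without EC2 TM and highest without EC2 CON; the others were lowest without EC2 CON and highest without EC1 CON; for Ifit3 and Ifit3b all remaining CON counts were then 0, so these are no bounds. A minimum of 10 counts in every library left only Ifit1 of the members (1 called) and 16 pathway genes (3 called). Ifit2, Ifit3 and Ifit3b had under 10 counts in at least 1 CON library and dropped out. DESeq2 with the replicate block called 3 members, without Ifit3b (log2 fold change 5.76, adjusted p = 0.0964), and 5 pathway genes; edgeR with the replicate block called 14 pathway genes, and the block changed no other member call. Pathway calls numbered 6 to 8 without 1 library; the 6 came without EC1 TM. Over all genes edgeR called 612 (347 higher), against 362 in DESeq2, 1184 with the replicate block, 401 in DESeq2 with it, and 399 (277 higher) with total counts and no TMM; the cause was not tested. Without 1 library it called 436 to 574. The members' median log2 scaled depth difference was 6.30, and it was 4.77 with at least 3 bases listed in both libraries, a value that rests on Ifit1 in EC1; the other choices gave 5.95 to 6.95. No member base was called in editing rate under any depth or altered-read minimum (Fisher's exact test, 0 with p under 0.05). The exonic bases tested were all places where the other copy of the Ifit3 and Ifit3b pair has the altered base. Editing and reads of that copy cannot be told apart there. Bases not listed in a library have no known depth and could not be tested.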
